A study of Mus musculus with 12 samples.

Results

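Cohesin ring subunits were followed mouse by mouse in RNA sequencing of the mouse hypothalamus. The 7 genes were Smc3, Smc1a, Rad21, Stag1, Stag2, Stag3 and Rec8, chosen by symbol as the ring's subunits, and all 7 were found among the 32494 genes of the table. The study was designed around removal of Smc3 from forebrain neurons of adult mice. All 12 mice were males with floxed Smc3 alleles, all received tamoxifen, and tissue was taken 5 weeks later. An age of 8 weeks is labelled, but not the step it refers to.

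Group WT (n = 7) had no Camk2a-cre/ERT2 transgene and group cKO (n = 5) carried it. This transgene makes a tamoxifen-activated recombinase in excitatory neurons of the forebrain. By that design glia, vessels and other neurons in a cKO hypothalamus would keep Smc3, which was not measured by cell type. The labels number the samples but do not say whether a sample pools animals, and each is treated here as 1 mouse, so p-values measure the spread between these samples. Every title in both groups also holds the word control, which was not used. Libraries are named by group label and number, as in WT 4 or cKO 14.

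Cohesin is a ring that encircles DNA. Smc3 and Smc1a are long coiled-coil ATPases that meet at a hinge, Rad21 is the kleisin that closes the ring, and Stag1 or Stag2 docks on Rad21 and takes part in contact with DNA and the insulator protein CTCF. In cells that no longer divide, such as neurons, the complex is known for extruding chromatin loops. Stag3 and Rec8 are the versions of the Stag subunit and of the kleisin that germ cells use in meiosis, and neither is a usual part of neuronal cohesin.

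Start-site sequence was matched for 5 of the 7 genes in RefSeq's GRCm38.p6 annotation, and Rad21 and Stag2 had no entry. Each window holds 280 bases on the plus strand, 250 before the start and 30 after it. Windows of Smc3, Stag1, Smc1a and Rec8 are shown. Smc3 and Stag1 had the largest rises, Smc1a varied together with Stag2, and Rec8 differed most from the lowest to the highest mouse. Capitals mark matches to 4 motifs searched on both strands, YY1 (GCCATNTT), NF-Y (CCAAT, read as ATTGG on the other strand), the E-box CACGTG and E2F (TTCCCGC).
Smc3, chr19:53600146-53600425: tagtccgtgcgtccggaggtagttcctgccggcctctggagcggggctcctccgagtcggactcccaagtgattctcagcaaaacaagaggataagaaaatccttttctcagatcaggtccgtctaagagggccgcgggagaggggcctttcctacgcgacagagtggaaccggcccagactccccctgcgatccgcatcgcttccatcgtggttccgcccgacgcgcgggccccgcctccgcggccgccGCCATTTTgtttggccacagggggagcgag
Stag1, chr9:100643198-100643477: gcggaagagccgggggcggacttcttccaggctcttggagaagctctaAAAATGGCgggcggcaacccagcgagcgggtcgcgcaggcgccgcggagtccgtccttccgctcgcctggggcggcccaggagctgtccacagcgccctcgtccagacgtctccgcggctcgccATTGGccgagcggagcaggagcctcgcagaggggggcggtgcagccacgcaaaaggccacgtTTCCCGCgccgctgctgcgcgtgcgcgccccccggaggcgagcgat
Smc1a, chrX:152016178-152016457: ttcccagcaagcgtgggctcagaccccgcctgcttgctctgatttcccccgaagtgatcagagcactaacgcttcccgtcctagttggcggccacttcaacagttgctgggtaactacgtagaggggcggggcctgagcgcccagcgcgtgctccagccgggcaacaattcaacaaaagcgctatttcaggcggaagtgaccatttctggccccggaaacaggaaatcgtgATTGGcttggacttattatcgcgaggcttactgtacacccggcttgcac
Rec8, chr14:55617916-55618195: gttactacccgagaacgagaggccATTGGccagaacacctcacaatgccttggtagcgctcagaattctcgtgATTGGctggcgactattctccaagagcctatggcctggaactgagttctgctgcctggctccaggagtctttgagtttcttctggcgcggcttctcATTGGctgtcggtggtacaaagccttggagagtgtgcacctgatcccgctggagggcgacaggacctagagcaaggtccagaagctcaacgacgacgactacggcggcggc

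The Smc3 window held 1 YY1 match, at position 1, the annotated start base, and no match to the other motifs. The Stag1 window held a YY1 match at -202, an NF-Y match at -78 and an E2F match at -16, as bases from the start. In Smc1a the single match was NF-Y at -19, and Rec8 held NF-Y matches at -226, -177 and -81. The Stag3 window (chr5:138280259-138280538, plus strand) held NF-Y, E-box and E2F matches at -239, -170 and -3. Over 32851 RefSeq windows of the same kind, YY1 letters occurred in 5.22% of windows, NF-Y in 36.1%, the E-box in 6.79% and E2F in 4.29%. A match describes letters in the window and was not tested as a binding site.

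Depth was 17.1 to 24.0 M reads (megareads) in 11 libraries and 68.7 M in WT 1. The deposited values are normalized CPM, that is, read counts divided by a scaled library size. Against its tissue label, 12 of 13 hypothalamus markers had a mean of at least 1 CPM, and their summed level was 62.8 to 682 CPM in WT and 157 to 747 CPM in cKO, with Nr5a1 and Rax at 0 in some libraries. The 5 libraries WT 1, WT 4, WT 5, cKO 12 and cKO 13 stood apart: the dopamine transporter gene Slc6a3 was 52.6 to 132 CPM in them and 0.826 to 1.78 CPM in the other 7, and the midbrain transcription factor gene En1 was 4.51 to 9.09 CPM against 0 to 0.248 CPM. Oxt, the oxytocin gene, was 0.280 to 145 CPM in those 5 and 69.5 to 348 CPM in the others. The 5 comprise 3 WT and 2 cKO mice, so they cross the groups, and the fold change of each member is given with and without them.

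Smc3, the subunit the study targeted, was higher in every library labelled cKO than in every library labelled WT. WT mice ran from 76.8 through a median of 83.0 to 85.7 CPM. The level was 144 CPM in cKO 8, 132 in cKO 9, 116 in cKO 12, 126 in cKO 13 and 136 in cKO 14. Means were 81.6 ± 3.14 CPM (SD, n = 7) and 131 ± 10.3 CPM (SD, n = 5). The groups left a gap between 85.7 and 116 CPM with no mouse in it.

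The limma log2 fold change of Smc3 was 0.67 (SE 0.05, adjusted p = 3.06e-05), the smallest p of the 15359 genes tested. The exact two-sided permutation test gave p = 0.00126, the smallest that 7 against 5 mice allow. No fall of Smc3 RNA was seen in the libraries labelled cKO, and whether intact Smc3 was lost in them was not tested. Directions below are between libraries by label. The table gives 1 value per gene, which holds reads of all exons, and it cannot show whether the floxed exons are present in those reads. In bulk tissue a change in the number of cells of a type and in RNA per cell cannot be told apart.

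The coefficient of variation (CV) of Smc3 between mice was 7.89% in cKO and 3.85% in WT, where counting reads alone gives 1.94% and 2.23%. Both cKO mice with high midbrain genes, cKO 12 and cKO 13, were the lowest of the 5, and the part of tissue content in this spread was not tested. The cKO to WT ratio was 1.502 within the 5 midbrain-high libraries (3 WT, 2 cKO) and 1.67 within the other 7 (4 WT, 3 cKO), where the log2 fold change was 0.73 (limma adjusted p = 0.00221).

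**Figure D1:**
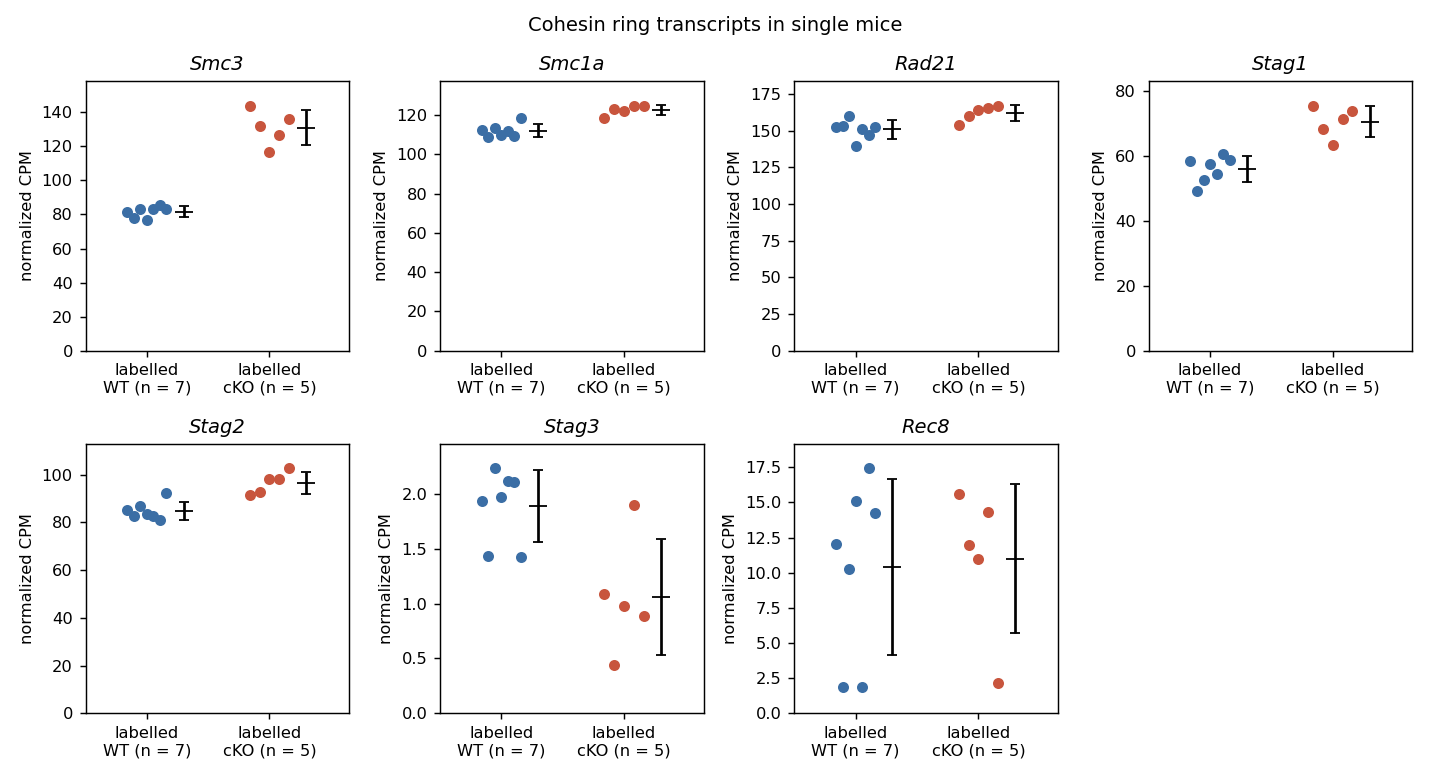
Normalized CPM of the 7 cohesin ring genes in each mouse, labelled WT (blue, n = 7) and labelled cKO (red, n = 5), with the group mean and SD as black bars and every axis from 0. Smc3 separates clearly by label, Stag1 and Smc1a by narrow margins, and Rec8 has 3 low mice spread over both groups.

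Of the 7 ring genes tested by limma on log2(CPM + 1), 4 rose (Smc3, Stag1, Stag2, Smc1a) and 1 fell (Stag3) in the libraries labelled cKO, with Benjamini-Hochberg adjusted p under 0.05 over all genes. Over all genes 14.1% passed, 6.54% higher and 7.60% lower. This balance turns with scaling, from 1004 higher and 1168 lower to 1377 higher and 1054 lower under median centring, while the 4 rises and the fall among the ring genes kept their direction. The median log2 fold change was 0.18 over the 7 genes and 0.01 over all 15359. Ranges of WT and cKO did not overlap for 3 of the 7 (Smc3, Smc1a, Stag1), a property of 6.73% of all genes in either direction, of 3.52% in the higher direction and of 3.20% in the lower. The authors' deposited table has 4 of the 7 with a false discovery rate (FDR) under 0.05 (Smc3, Stag1, Stag2, Stag3), against 4.94% of its genes, 1.63% higher and 3.30% lower.

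Smc1a, the partner ATPase of Smc3, rose by a small step. It was 109 to 118 CPM in WT with a median of 112, and 119, 123, 122, 125 and 125 CPM in cKO 8, 9, 12, 13 and 14. The ranges did not overlap, but the nearest mice, WT 15 at 118 and cKO 8 at 119 CPM, were closer than the counting CV of 1.995% in cKO. The log2 fold change was 0.13 (SE 0.03, limma adjusted p = 0.0178) and the exact permutation p = 0.00126. In the authors' deposited table the same log2 fold change of 0.13 has an FDR of 0.113, by their own test over 32494 genes against 15359 here. Without the 5 midbrain-high libraries it was 0.12 (limma adjusted p = 0.171, 7 mice), and the call ended. With all 12 mice and a term for those 5 libraries it was 0.13 (limma adjusted p = 0.0168), past the threshold.

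Rad21, the kleisin, was the most abundant ring transcript per kb of length and did not pass. WT mice had 140 to 160 CPM with a median of 152, and cKO 8, 9, 12, 13 and 14 had 154, 160, 164, 166 and 167 CPM. The groups overlapped, although 4 of 5 cKO mice lay above the highest WT mouse, WT 5. The log2 fold change was 0.10 (SE 0.04, 95% interval 0.02 to 0.18, limma adjusted p = 0.0802), and the exact permutation p of the CPM difference was 0.0126. Median centring (0.12, limma adjusted p = 0.0469), arrayWeights (0.087, limma adjusted p = 0.0372) and leaving out WT 5 (0.12, limma adjusted p = 0.0496) put it past the threshold. Without the 5 midbrain-high libraries it was 0.12 (limma adjusted p = 0.197, 7 mice), and with a term for them 0.10 (limma adjusted p = 0.0506).

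Among the Stag subunits, Stag1 showed the second largest rise of the ring after Smc3. WT mice had 49.2 to 60.6 CPM with a median of 57.3, and cKO 8, 9, 12, 13 and 14 had 75.5, 68.2, 63.5, 71.4 and 73.9 CPM. The ranges did not overlap, and means were 55.9 ± 4.03 CPM (SD, n = 7) and 70.5 ± 4.79 CPM (SD, n = 5). The log2 fold change was 0.33 (SE 0.06, limma adjusted p = 0.00478, exact permutation p = 0.00126). The cKO to WT ratio was 1.26 within the midbrain-high libraries and 1.25 within the others, and without the midbrain-high libraries the log2 fold change was 0.32 (limma adjusted p = 0.0309).

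Stag2, the paralog with the higher level per kb, rose as well. WT mice had 80.8 to 92.3 CPM with a median of 83.4, and cKO 8, 9, 12, 13 and 14 had 91.6, 92.6, 98.1, 98.1 and 103 CPM. The groups overlapped through WT 15, the highest WT mouse, and cKO 8. The log2 fold change was 0.19 (SE 0.04, limma adjusted p = 0.0130, exact permutation p = 0.00253). It was 0.17 without the 5 midbrain-high libraries (limma adjusted p = 0.143, 7 mice), which ended the call, and 0.19 with all 12 mice and a term for those libraries (limma adjusted p = 0.00990).

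Stag3, the meiotic Stag, had few reads and fell. WT mice had 1.42 to 2.23 CPM with a median of 1.97, and cKO 8, 9, 12, 13 and 14 had 1.09, 0.441, 0.980, 1.90 and 0.888 CPM. In all, 4 cKO mice lay below the lowest WT mouse and cKO 13 lay inside the WT range. These values rest on 29 to 133 reads in WT and 9 to 40 in cKO.

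The log2 fold change of Stag3 was -0.52 (SE 0.14, limma adjusted p = 0.0320) on the log2(CPM + 1) scale. There the added 1 CPM shrinks the fold of a gene this low. In the authors' deposited table it was -0.83 (FDR 0.0325, by their own test over 32494 genes). Without the 5 midbrain-high libraries the limma log2 fold change was -0.70 (limma adjusted p = 0.0513, 7 mice), and with a term for them over 12 mice -0.51 (limma adjusted p = 0.0231). The cKO to WT ratio of CPM was 0.772 within those 5 and 0.423 within the other 7. Leaving out any 1 of WT 1, 6, 7 or 11 or of cKO 8, 9, 12 or 14 ended the call, with limma adjusted p up to 0.0730. Stag3 overlaps Gpc2 and Gal3st4 in the RefSeq models, and the strand setting of the counting is not given in the sources used here, so shared reads cannot be told apart. Gpc2, a glypican gene, was 4.30 ± 0.584 CPM (SD, n = 7) in WT and 3.004 ± 0.806 CPM (SD, n = 5) in cKO, and Gal3st4 was 3.34 ± 0.736 and 3.56 ± 0.364 CPM. Smc1a likewise overlaps Ribc1, at 1.004 CPM in WT, and Rad21 overlaps Gm52217, at 1.30 CPM in WT.

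Summed levels of 11 marker lists, of the hypothalamus, other regions and cell types, were compared between the labels, and none passed after adjustment over the 11. The lowest p-values were those of the thalamus, striatum and astrocyte lists, each with adjusted p = 0.139. The summed level of 9 thalamus markers was 510 to 1077 CPM in WT and 302 to 624.8 CPM in cKO (exact permutation p = 0.0379), and 3 of the 9 fell by limma, where 7.60% of all genes did. For 7 striatum markers it was 146 to 187 CPM and 134 to 153 CPM (exact permutation p = 0.0189), and 1 of the 7 fell by limma. For 6 astrocyte markers it was 3174 to 3876 CPM and 3488 to 4255 CPM (exact permutation p = 0.0303), and 0 of the 6 passed by limma, with 1 at an unadjusted p under 0.05, as had 4773 of all 15359 genes. For the other 8 lists the exact permutation p was 0.0972 (microglia) to 0.922 (meiotic genes). No marker of the thalamus, striatum and astrocyte lists was at 0 in any library. With the thalamus score as a covariate, Smc3 and Stag1 remained past the threshold. The same covariate gave Smc1a 0.11 (limma adjusted p = 0.107), Stag2 0.15 (limma adjusted p = 0.104) and Stag3 -0.46 (limma adjusted p = 0.162). The part of striatal and astrocyte content in the member differences was not tested.

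**Figure D2:**
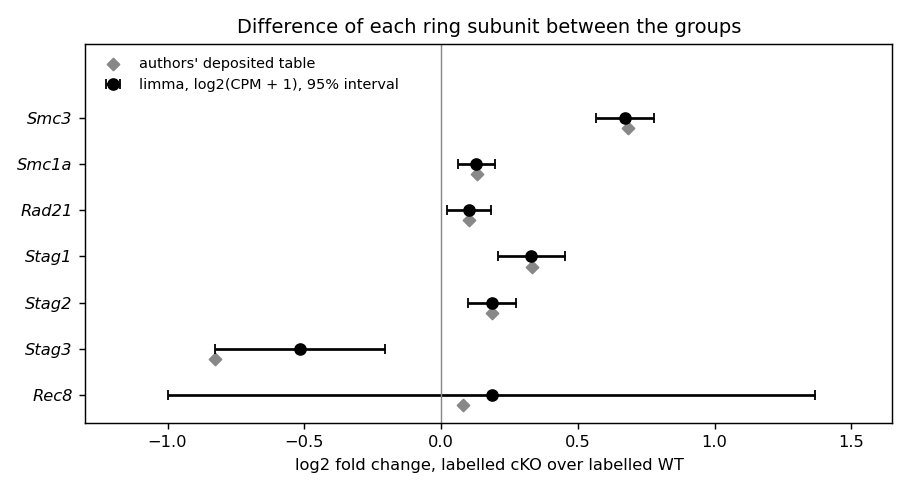
Log2 fold change of each ring gene, labelled cKO over labelled WT, from limma on log2(CPM + 1) with its 95% interval (black) and from the authors' deposited table (grey diamonds). Smc3 at 0.67 stands right of the other genes, Stag3 lies left of 0, and the Rec8 interval runs from -0.998 to 1.37.

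Stoichiometry was read per kilobase of the longest coding transcript, from 2184 bases for Rec8 to 6186 bases for Stag1, since levels of different genes compare only per length. In WT mice Rad21 stood highest at 38.1 ± 1.59 CPM per kb (SD, n = 7), followed by Smc1a at 23.9 ± 0.701, Smc3 at 16.8 ± 0.648, Stag2 at 13.7 ± 0.618 and Stag1 at 9.04 ± 0.651. Ranges of neighbours in this order did not overlap among WT mice. Rec8 came next at 4.77 ± 2.87 CPM per kb and Stag3 was last at 0.448 ± 0.0784 (both SD, n = 7). The highest Rec8 mouse, 7.98, reached just above the lowest Stag1 mouse, 7.95.

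The length chosen matters most for Stag1. With all annotated exons as the length, WT levels were 35.6 CPM per kb for Rad21, 19.4 for Smc1a, 14.7 for Smc3, 10.3 for Stag2, 4.75 for Stag1, 3.55 for Rec8 and 0.329 for Stag3. The order of the means was the same, but Rec8 lay above Stag1 within WT 6 (5.15 and 4.87) and WT 11 (5.94 and 5.14).

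In the libraries labelled cKO the order of Smc3 and Smc1a was no longer separate. Smc3 was 27.0 ± 2.13 CPM per kb (SD, n = 5) and Smc1a 26.1 ± 0.535, with overlapping ranges of 24.0 to 29.7 and 25.3 to 26.6. Smc3 was above Smc1a in cKO 8, 9 and 14 and below it in cKO 12 and 13. With all annotated exons as the length the means were 23.6 and 21.2 CPM per kb with overlapping ranges, and cKO 13 turned (22.8 for Smc3 and 21.6 for Smc1a), which left only cKO 12 with Smc3 below. Rad21 at 41.0, Stag2 at 15.7 and Stag1 at 11.4 CPM per kb kept the same places as in WT.

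As a share of the 5 mitotic ring transcripts per kb, Smc3 went from 16.6% ± 0.479 in WT (SD, n = 7) to 22.3% ± 1.55 in cKO (SD, n = 5). Its WT mice lay between 16.2% and 17.5% and its cKO mice between 20.4% and 24.6%. Shares add to a whole, so the others gave way: Smc1a went from 23.5% to 21.6% and Rad21 from 37.5% to 33.8%, while Stag1 moved from 8.90% to 9.40% and Stag2 from 13.5% to 12.9%. With all annotated exons as the length, the Smc3 share was 17.4% in WT and 23.4% in cKO, and the Stag1 share was 5.60% and 5.93%.

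**Figure D3:**
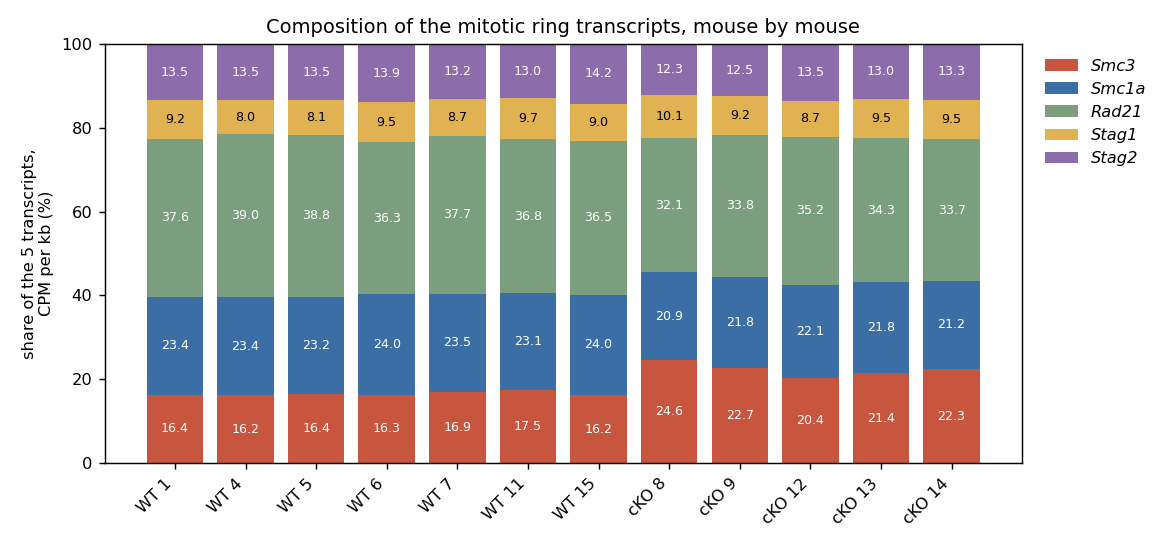
Share of the 5 mitotic ring transcripts (CPM per kb of the longest coding transcript, in %) in each mouse, stacked to 100%. The Smc3 segment at the bottom is 16.2% to 17.5% in the 7 WT mice and 20.4% to 24.6% in the 5 cKO mice.

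Ratios of CPM within a mouse cancel the scaling of its library, and they are not per length. Of 7 ratios compared, 4 differed between the labels after Benjamini-Hochberg adjustment over the 7. The CPM ratio of Smc3 to Smc1a was 0.700 to 0.784 in WT with a median of 0.724, and 1.21, 1.07, 0.953, 1.02 and 1.09 in cKO 8, 9, 12, 13 and 14. The groups did not overlap, and the mean log2 ratio differed by 0.55 (exact permutation p = 0.00126, adjusted 0.00295). Smc3 to Rad21 was 0.542 ± 0.0242 in WT (SD, n = 7) and 0.810 ± 0.0842 in cKO (SD, n = 5), a log2 difference of 0.58 with the same p-values.

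The pair without Smc3 differed less. Rad21 to Smc1a was 1.35 ± 0.0537 in WT (SD, n = 7) and 1.32 ± 0.0208 in cKO (SD, n = 5), a log2 difference of -0.03 (exact permutation p = 0.341, adjusted 0.398). The cKO mice covered 1.29 to 1.34, inside the WT range of 1.27 to 1.41.

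The ratio of the somatic Stag transcripts to Smc1a was slightly higher. Stag1 plus Stag2 to Smc1a was 1.21 to 1.29 in WT with a median of 1.28, and 1.41, 1.31, 1.32, 1.36 and 1.41 in cKO 8, 9, 12, 13 and 14. The groups did not overlap, with a log2 difference of 0.12 (exact permutation p = 0.00126, adjusted 0.00295). Stag1 to Stag2 was 0.660 ± 0.0532 in WT (SD, n = 7) and 0.731 ± 0.0629 in cKO (SD, n = 5), with overlap and a log2 difference of 0.15 (exact permutation p = 0.0619, adjusted 0.0866). It passed when WT 11 (0.18, exact permutation, adjusted p = 0.0303) or cKO 12 (0.19, exact permutation, adjusted p = 0.0297) was left out.

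Ratios of the meiotic subunits to their mitotic relatives were also taken by CPM. That understates both Rec8 and Stag3, each shorter than its mitotic relatives. Per kb of length the WT means were 4.77 for Rec8 and 38.1 for Rad21, and 0.448 for Stag3 against 9.04 for Stag1 and 13.7 for Stag2. By CPM, Stag3 was 1.34% ± 0.245 of Stag1 plus Stag2 in WT (SD, n = 7) and 0.631% ± 0.310 in cKO (SD, n = 5), with exact permutation p = 0.00505 and adjusted p = 0.00884. In cKO 8, 9, 12, 13 and 14 it was 0.653%, 0.274%, 0.606%, 1.12% and 0.503%, and only cKO 13 entered the WT range of 0.942% to 1.60%. Rec8 to Rad21 was 6.98% ± 4.32 in WT (SD, n = 7) and 6.85% ± 3.38 in cKO (SD, n = 5, exact permutation p = 0.958). With the 5 midbrain-high libraries left out, Smc3 to Smc1a (0.62), Smc3 to Rad21 (0.62) and Stag1 plus Stag2 to Smc1a (0.12) each had an exact permutation p of 0.0286. That is the smallest p that 4 against 3 mice allow, and adjusted over the 7 ratios it was 0.0667. Permuting labels within the 5 and within the other 7, over all 12 mice, gave these 3 ratios an adjusted p of 0.00667 (exact permutation). The Stag3 ratio differed by -0.87 percentage points without the 5 libraries (exact permutation p = 0.0571, adjusted 0.1), which ended its call. Permuting within the 2 sets gave the Stag3 ratio an adjusted p of 0.0150 (exact permutation).

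Co-variation was tested among WT mice, because the labels form separate clusters for Smc3 and 5 cKO mice are under the minimum of 6. Of 10 pairs of the 5 mitotic ring genes, 1 passed. Smc1a and Stag2, both on the X chromosome, rose and fell together over the 7 WT mice with Pearson's r = 0.95 (exact permutation p = 0.00377, adjusted over 10 pairs 0.0377). Spearman's rho was 0.93 (exact permutation p = 0.00675, adjusted 0.0675), and r was 0.85 without the 2 mice farthest from the Smc1a median. WT 15 had the highest level of both genes among WT mice, and r was 0.82 without it.

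The adjusted call on that pair ended in any fit without WT 1, 4, 5, 11 or 15, where 6 mice remained and r stayed between 0.82 and 0.98 over all 7 such fits. Over all 12 mice, after subtracting each label's mean, r was 0.87 (permutation, adjusted p = 0.00560). Subtracting the mean of each label within each tissue set gave 0.88 (permutation, adjusted p = 0.0263). Points of all these correlations share library scaling and tissue content.

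The other 9 pairs did not pass. Smc3 and Stag1, the pair with the largest rises, had r = 0.42 (exact permutation p = 0.349) and rho = 0.36 (exact permutation p = 0.444) among WT mice. Without the 2 mice farthest from the Smc3 median r was 0.28. Leaving out 1 mouse moved r from 0.07 (without WT 4) to 0.73 (without WT 6). After subtracting label means over 12 mice r was 0.64 (permutation p = 0.0258, adjusted 0.129). Smc3 and Smc1a, which bind each other in the ring, had r = 0.36 in WT and -0.01 over the 12 centred mice. Smc1a and Rad21 had r = 0.42 in WT and 0.56 over the 12, and Rad21 and Stag1 had -0.48 and -0.41. Centring on label and tissue set gave 0.12 for Smc3 and Smc1a, 0.74 for Smc1a and Rad21, and -0.10 for Rad21 and Stag1. Among WT mice without the 2 farthest from the median of the first gene named, the same pairs had -0.46, 0.89 and -0.59. All r without 2 mice rest on fewer mice than the minimum of 6.

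**Figure D4:**
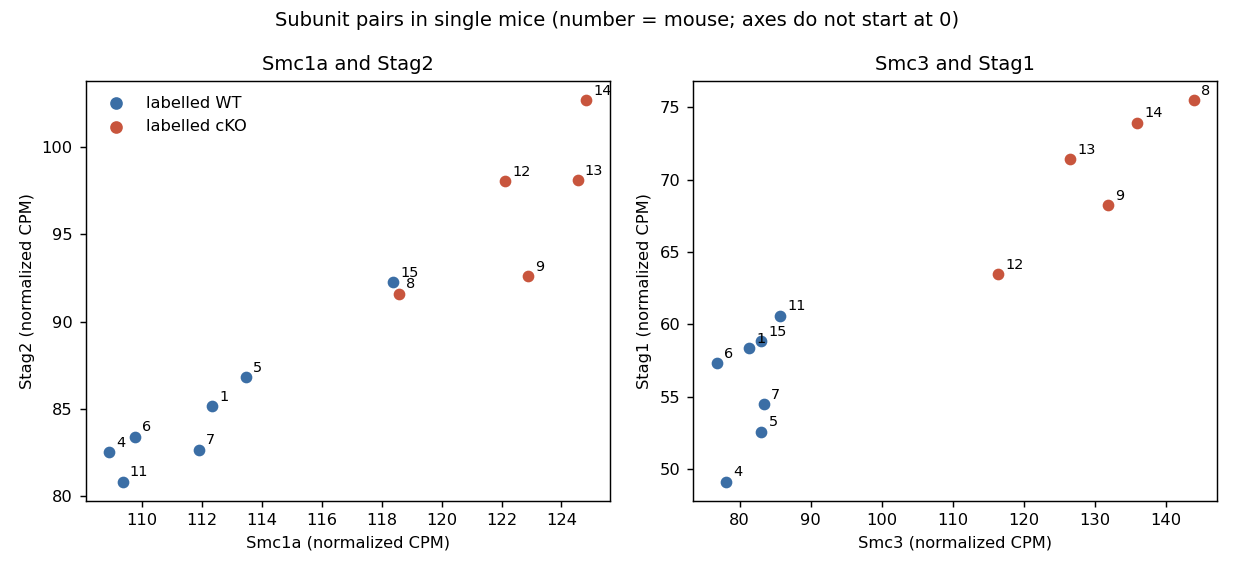
Normalized CPM of Smc1a against Stag2 (left) and of Smc3 against Stag1 (right), 1 point per mouse with its number, labelled WT in blue and labelled cKO in red, on axes that do not start at 0. On the left the 7 WT mice line up (r = 0.95), and on the right the labels form separate clusters.

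Ranks of single mice over all 12, from 1 for the highest, set these pairs side by side. cKO 14 ranked 1 for Smc1a, Rad21 and Stag2 and 2 for Smc3 and Stag1. cKO 8 ranked 1 for Smc3 and Stag1 but 5 for Smc1a, 6 for Rad21 and 6 for Stag2. So the mouse with most Smc3 and Stag1 was the lowest cKO mouse for Smc1a, Rad21 and Stag2. Among WT mice, WT 4 ranked 12 for Smc1a and for Stag1, and WT 6 ranked 12 for Smc3 and for Rad21.

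Likeness to all other genes, as Pearson's r of label-centred log2(CPM + 1) over 12 mice, is given as a description. Among 15358 other genes Stag2 ranked 11 for likeness to Smc1a, and Smc1a ranked 11 for likeness to Stag2. For Smc3, Stag1 ranked 481 and Smc1a 7579. Centred within label and tissue set, these ranks were 40 (Stag2 for Smc1a), 67 (Smc1a for Stag2), 713 (Stag1 for Smc3) and 6285 (Smc1a for Smc3). Among genes of at least 10 CPM the most alike to Smc3 were Mak16 (r = 0.92), Arxes1 (0.90) and 2610002M06Rik (0.89). For Smc1a they were Glod4 (0.91), Timm21 (0.91) and Boc (0.89), and Boc was also among the 3 for Stag2, with Dnajc3 and Ttc3 (each 0.92).

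Rad21 was most alike to Pafah1b1 (r = 0.96), a lissencephaly gene that regulates dynein, and to Mtrex and Eps15 (each 0.95). Stag1 was most alike to Lin7c (0.97), a scaffold gene of synapses and cell junctions, and to Tusc3 and Gng10 (each 0.96). No ring gene was among the 3 nearest of another.

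Rec8, the meiotic kleisin, varied most from lowest to highest over the 12 mice, and without regard to label. Its CV was 60.1% in WT and 48.0% in cKO, where Stag3 had 17.5% and 50.0%. WT 1, 4, 5, 6, 7, 11 and 15 had 12.1, 1.87, 10.3, 15.1, 1.86, 17.4 and 14.3 CPM, and cKO 8, 9, 12, 13 and 14 had 15.6, 11.96, 11.01, 14.3 and 2.13 CPM. WT 4, WT 7 and cKO 14 were low and the other 9 mice lay between 10.3 and 17.4 CPM, with none between 2.13 and 10.3. These levels rest on 36 to 43 reads in the 3 low mice and 221 to 830 in the others. The label difference was 0.18 on the log2 scale (SE 0.55, 95% interval -0.998 to 1.37, limma adjusted p = 0.854). The cKO to WT ratio was 1.57 within the midbrain-high libraries and 0.812 within the others, where the log2 difference was -0.29 (limma adjusted p = 0.840).

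Of the 3 low mice, WT 4 is midbrain-high, and WT 7 and cKO 14 are not. The gap between adjacent mice, with at least 3 on each side, was the sixth widest of 15359 genes on a log2 scale, after Oxt, Slc6a3, En1, Myoc and Ucn3. The lowest of the 9 mice was 4.82 times the highest of the 3. The next gene with the same 3 mice lowest was Gstm6, a glutathione transferase gene, at 1.43 times (8.78 to 10.3 CPM against 14.7 to 21.4 CPM). These genes were singled out after their values were seen.

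Genes beside Rec8 varied far less between mice. Rec8 had a highest to lowest ratio of 9.37 over the 12 mice, and its 9 nearest neighbours above the low-value limit had 1.17 to 1.51. Irf9 on one side, an interferon signalling gene, was 13.02, 12.6 and 12.4 CPM in WT 4, WT 7 and cKO 14, just below the 13.4 to 15.9 CPM of the other 9 mice, so the same 3 mice were its lowest by a small step. Ipo4 on the other side, a nuclear import gene, was 116, 121 and 117 CPM in them, inside the 108 to 127 CPM of the others.

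**Figure D5:**
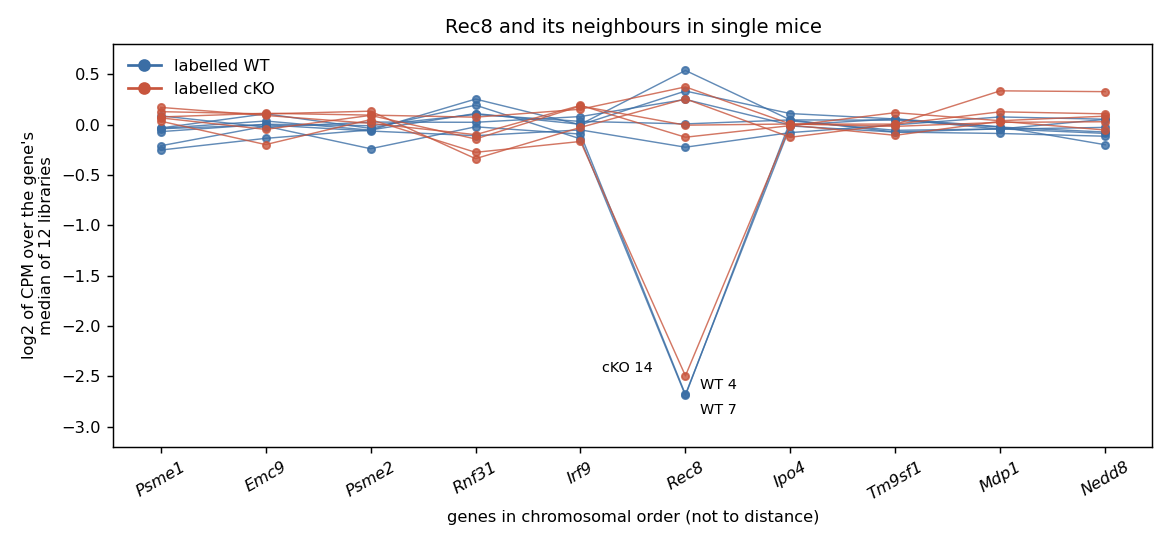
Log2 of CPM over the gene's own median of 12 libraries for Rec8 and its 9 neighbours above the low-value limit, in chromosomal order and not to distance, 1 line per mouse. Rec8 drops by more than 2 log2 units in WT 4, WT 7 and cKO 14, while the lines of the neighbours stay near 0.

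Other meiotic genes were low in both groups. Of 10 in the list, 4 had a mean of at least 1 CPM, and the sum was 6.66 to 7.72 CPM in WT and 5.60 to 7.80 CPM in cKO (exact permutation p = 0.922). Sycp1, Hormad1, Meiob and Majin, of the synaptonemal complex, recombination or telomere attachment in meiosis, were at 0 in some libraries. Markers of proliferating cells summed to 2.03 to 3.10 CPM in WT and 2.54 to 4.11 CPM in cKO (exact permutation p = 0.189), with Mki67, Ccnb1 and Aurkb at 0 in some.

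Outside the ring, 31 genes were listed, of cohesin loading, release, acetylation, boundaries, cleavage and meiosis and of the related condensin and SMC5/6 complexes. Of these, 20 were tested, 1 rose, 2 fell and 17 did not pass, with a median log2 fold change of -0.01. These 3 calls among 20 are close to the 14.1% called over all genes, so the list as a whole did not stand out, and the 3 are given as single genes. Mau2, a loader subunit that pairs with Nipbl, fell to 94.4 ± 3.01 CPM (SD, n = 5) in cKO against 106 ± 5.12 CPM in WT (SD, n = 7), a log2 change of -0.16 (SE 0.04, limma adjusted p = 0.0182). Pds5b, which binds the ring with Wapl, fell from 134 ± 10.4 to 113 ± 14.5 CPM, a change of -0.24 (SE 0.07, limma adjusted p = 0.0439). Smc6, of the SMC5/6 complex, rose from 62.9 ± 2.24 to 70.3 ± 2.95 CPM, a change of 0.16 (SE 0.04, limma adjusted p = 0.0173).

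Nipbl, the other loader subunit, had a log2 fold change of 0.03, Wapl, the release factor, 0.01, and Ctcf, the boundary factor, -0.06, none past the threshold. Smc5, the partner of Smc6, had -0.11 (limma adjusted p = 0.101).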

How the data were processed

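The authors deposited normalized CPM for 32494 genes in 12 libraries, together with the output of their test, which holds log2 fold changes, log2 mean CPM and p-values. Per the submitters' processing notes, bcl2fastq, FastQC 0.11.9, STAR 2.7.9a, SAMtools, Subread and featureCounts were used. Genome build, annotation and strand setting are not given in the sources used here. Of the per-sample columns, 0 were left unused.

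Deposited CPM values were whole multiples of 1 step per library for 100% of values (tolerance 0.01 reads), which gave back read counts and depth. Over 31 pairs within a group, chi-square per degree of freedom (over genes reaching 20 reads in the pair) was 3.04 to 26.3, so every library was counted as 1 sample. Differences were tested with limma 3.58.1 in R 4.3.3 (lmFit, eBayes with trend) on log2(CPM + 1) for the 15359 genes whose mean reached 1 CPM, with Benjamini-Hochberg adjustment over all of them and a threshold of 0.05. No covariates were used. Ratios and sums of the 11 marker lists used two-sided exact permutation over 792 splits, and WT correlations used exact permutation over 5040 pairings. Correlations over 12 centred mice used 100000 permutations, within labels or, where centred on label and tissue set, within both. Counting CVs assume Poisson reads and cover counting error only.

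Transcript lengths came from GENCODE M21, and neighbours and windows from RefSeq GRCm38.p6. Named genes were the 7 members, pathway genes past the threshold, and the 3 genes of at least 10 CPM most alike to each mitotic subunit. The other genes named were chosen after their values were seen. Members and lists were chosen with earlier results of these data known.

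Alternatives were median centring, quantile normalization, a pseudocount of 0.1, all genes above 0, a minimum of 5 CPM, eBayes without trend or robust, arrayWeights, thalamus and hypothalamus marker scores as covariates, edgeR 4.0.16 (quasi-likelihood) and DESeq2 1.42.0 on the recovered reads, and leaving out each mouse. Ratios were also tried with 1 CPM added. Stag1 plus Stag2 to Smc1a and Stag3 to Stag1 plus Stag2 were also tried per kb. Leaving out the 5 midbrain-high libraries, a term for them, permuting within the 2 sets of libraries, and centred correlations were added after seeing the data.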

Additional observations from a re-analysis of the deposited data

Results flagged for a closer look

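Sequencing depth was 68.7 M reads (megareads) in WT 1, and the next deepest WT library, WT 11, had 24.0 M. The gap to the next library was 0.923 of the whole WT range. Member values and the other measures were examined in 52 groups of libraries by the same comparison, of which this was the 1 that stood out, where chance alone gives about 2.60 (1 in 20). Without WT 1 the log2 fold changes of Smc3 and Stag1 stayed past the limma threshold, and Stag3 had -0.51 (limma adjusted p = 0.0620).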

How the results depend on the processing

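Smc3 had a log2 fold change of 0.66 to 0.74 over 14 alternatives and Stag1 0.27 to 0.37, past the threshold in each, and without 1 mouse they were 0.64 to 0.71 and 0.30 to 0.37. No paired analysis was possible because WT and cKO mice share no number. The count of genes past the limma threshold was 2172, with 2101 by edgeR and 2747 by DESeq2 on recovered reads. It was 5126 with arrayWeights, 834 with the thalamus score, 484 without the 5 midbrain-high libraries, and 1158 (without WT 1) to 2302 without 1 mouse.

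The thalamus score gave Smc1a 0.11, Stag2 0.15, Stag3 -0.46 and Rec8 -0.41. Thalamus and hypothalamus scores together gave 0.11, 0.14, -0.41 and -0.47, and leaving out the 5 midbrain-high libraries gave 0.12, 0.17, -0.70 and -0.29. None of these was past the threshold, with limma adjusted p for Smc1a, Stag2 and Stag3 of 0.0513 to 0.171, and the last rests on 7 libraries. A term for those 5 libraries over all 12 kept Smc1a (0.13), Stag2 (0.19) and Stag3 (-0.51) past the threshold, with limma adjusted p of 0.00990 to 0.0231. Stag3 was also not past it under quantile normalization (-0.44) and with all genes above 0 tested (-0.52, 31802 genes), and had -0.65 to -0.40 without 1 mouse. A minimum of 5 CPM left no Stag3 value. Rad21 passed with median centring (0.12) and arrayWeights (0.087), and had 0.085 to 0.12 without 1 mouse. Rec8 turned negative with arrayWeights (-0.21), and without 1 mouse had -0.10 (WT 7) to 0.62, with -0.09 without WT 4.

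Without the 5 midbrain-high libraries the log2 differences of Smc3 to Smc1a (0.62), Smc3 to Rad21 (0.62) and Stag1 plus Stag2 to Smc1a (0.12), and the Stag3 share (-0.87 percentage points), were not past the adjusted threshold. The first 3 had the smallest exact permutation p that 4 against 3 mice allow, 0.0286. Labels permuted within the 2 sets of libraries kept all 4 past it, with adjusted p of 0.00667 to 0.0150. Without 1 mouse Stag1 to Stag2 was 0.10 to 0.19 and Rec8 to Rad21 -1.09 to 1.27 percentage points. The count of co-varying pairs went from 1 to 0 with median centring (r = 0.94) and Spearman's rho (0.93), and was 0 to 1 without 1 WT mouse, where r of Smc1a and Stag2 was 0.82 to 0.98. The causes of these shifts were not tested. Counts of 9 to 133 reads limit Stag3.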
